A study of Mus musculus with 8 samples.

Results

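The transcripts followed here are 41 genes of the blood-testis barrier and of the cell junctions of the seminiferous epithelium, among 19938 genes named on the arrays. They were chosen by name, with earlier results of these arrays known, and each was read from the brightest probe set that carries its symbol alone, by the mean over all 8 arrays. All 41 were measured, through 42 such probe sets.

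Whole testis RNA was profiled on Affymetrix Mouse Gene ST arrays from 3 Ing2+/+ and 5 Ing2−/− mice aged 2 to 3 months, 1 array per mouse, with no pooling. The labels call the animals littermates, and the comparison asked how testicular gene expression differs without Ing2, a chromatin reader of histone-modifying complexes. Ing2−/− mice lack exon 2 of Ing2 throughout the body, since the targeted allele was recombined by EIIa-Cre, which acts in the early embryo. Breeding with C57BL/6J followed. The allele was made in embryonic stem cells of another strain, so the background is not C57BL/6J alone. Ing2+/+ mice carry no deleted copy, and whole tissue rather than sorted cells was used in both groups.

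Sertoli cells span the seminiferous epithelium and join one another near its base by tight junctions, gap junctions, desmosomes and the basal ectoplasmic specialization, an actin-bundled adherens junction found in the testis. Together these contacts form the blood-testis barrier, which separates spermatogonia and early spermatocytes from later germ cells and opens and reseals as spermatocytes cross it. A similar apical ectoplasmic specialization holds the heads of elongating spermatids. Several of the same proteins also join endothelial cells, so a whole testis value adds up all of these sources, and fewer cells of a type cannot be told apart from less RNA per cell.

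The array values match the genotype. Ing2 lay at 7.46 ± 0.13 on the log2 scale in wild-type testes (SD, n = 3) and at 5.29 ± 0.22 in mutant ones (SD, n = 5), and it fell by 2.16 (standard error 0.13, limma adjusted p = 3.95e-04) with every Ing2−/− array below every Ing2+/+ array. As a yardstick for dim signal, each array's median over its unnamed probe sets was used, and of the 23 Sertoli markers all but Amh, which is low in adults, lay above it on every Ing2+/+ array. Ing2 lay above it on all 3 Ing2+/+ arrays and on 1 of the 5 Ing2−/− arrays, so its mutant level is near that of dim probe sets and the drop may be understated. Ing2−/− replicate 3 stood apart, with a mean correlation of 0.983 to its own group where the other Ing2−/− arrays had 0.990 to 0.992, and it received the lowest array weight (0.21 against 0.85 to 2.05). Results that rest on it are therefore given with and without it.

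None of the 41 junction genes passed the test across the whole table between genotypes, although most lay on the higher side in Ing2−/− testes. The tight junction genes Cgn, F11r and Cldn11 and the gap junction gene Gja1 were 1.65-fold to 1.74-fold higher on average, or 0.72 to 0.80 on the log2 scale. Without Ing2−/− replicate 3 these log2 differences were 0.56 to 0.61. The integrin genes Itga6 and Itgb1 lay higher in every mutant array. Claudin 13, N-cadherin and nectin 3 lay lower instead. The mutant arrays varied among themselves far more than the wild-type arrays did, and the call rested on 1 of them: without Ing2−/− replicate 3, 10 of the genes were called higher (24.4%, against 8.72% of all genes) and 1 lower (2.44%, against 7.76%), while calls over all genes went from 992 to 3286.

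In numbers, 0 of 41 members passed limma at an adjusted p under 0.05, against 4.98% of all genes in either direction (1.97% higher and 3.01% lower). The methods' random variance model at an unadjusted p under 0.001 also called 0, and limma called 1, Cldn10, once Ing2−/− replicate 2 was left out. A second probe set of Cldn10, dimmer by the mean over all arrays and so not counted, passed with all 8 arrays (limma adjusted p = 0.0308). At an unadjusted p under 0.05, limma counted 13 members as higher in Ing2−/− (31.7%, against 16.5% of all genes) and 1 as lower (2.44%, against 13.5%). In 13 members every Ing2−/− array lay above every Ing2+/+ array (31.7%, against 16.7% of all genes), in 2 every one lay below (4.88%, against 14.9%), and in 26 the groups overlapped. The share on the higher side was thus above the share over all genes and the share on the lower side below it. Among 89 further junction genes read below, the unadjusted shares were 22.5% higher and 11.2% lower, nearer to those over all genes.

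The differences were positive in 36 members (87.8%, against 54.3% of all genes) and negative in 5, namely Cldn13, Cdh2, Nectin3, Cdh3 and Pard3. With each array shifted to an equal median of the Sertoli markers only 8 stayed positive, and the share of all genes that did was not counted. The median difference was 0.16 on the log2 scale over the members and 0.02 over all genes. After the Sertoli shift these medians were −0.39 and −0.53. The shift moves the difference of every gene by the same amount, so it cannot alter how members stand against all genes. On both scales alike, the members' median stood 0.14 above that of all genes, and 36 members lay above the median of all genes. Signs given from here on are on the deposited scale, where a level is read against the rest of the testis RNA.

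**Figure D1:**
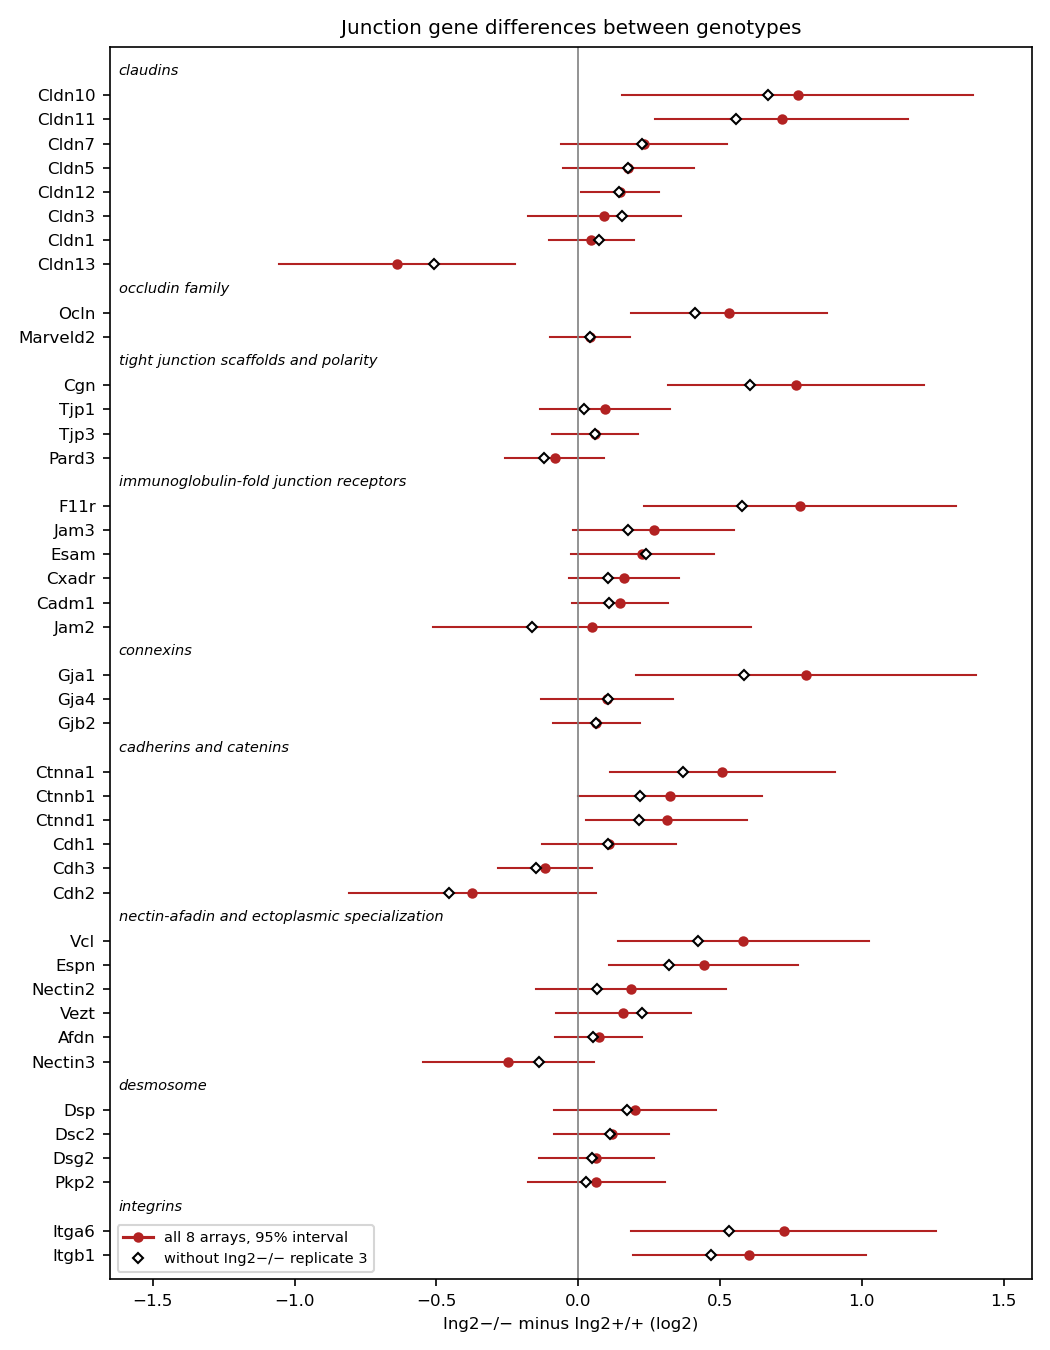
Difference between genotypes (Ing2−/− minus Ing2+/+, log2) for the 41 junction genes grouped by role; filled points use all 8 arrays with limma's 95% interval, and open diamonds leave out Ing2−/− replicate 3. Of the 41 filled points 36 lie right of 0, beside 54.3% of all genes, and shifting every array to an equal Sertoli marker median leaves 8 there.

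Promoter sequences are shown for Cgn, Cldn11 and Ocln, since with Cldn13, for which no window was matched, they had the smallest p-values of the set, and each lay higher in all 5 Ing2−/− arrays. Each line gives the 250 bases before the transcript start from RefSeq (GRCm38.p6), 5′ to 3′ on the strand of the gene, with capitals marking a GC box (GGGCGG) or a CCAAT box (CCAAT) on either strand, and these motifs overlap nowhere in the 3 windows. The Cgn window is chr3:94786483-94786732 on the minus strand, 1243 bases inside the outermost start that RefSeq gives the gene, the Cldn11 window chr3:31149670-31149919 on the plus strand and the Ocln window chr13:100552719-100552968 on the minus strand.
Cgn: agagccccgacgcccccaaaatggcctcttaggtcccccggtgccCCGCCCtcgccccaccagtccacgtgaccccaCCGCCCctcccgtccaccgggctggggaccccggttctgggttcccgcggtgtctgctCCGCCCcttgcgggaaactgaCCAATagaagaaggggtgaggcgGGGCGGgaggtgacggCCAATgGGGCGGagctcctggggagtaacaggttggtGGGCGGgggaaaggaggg
Cldn11: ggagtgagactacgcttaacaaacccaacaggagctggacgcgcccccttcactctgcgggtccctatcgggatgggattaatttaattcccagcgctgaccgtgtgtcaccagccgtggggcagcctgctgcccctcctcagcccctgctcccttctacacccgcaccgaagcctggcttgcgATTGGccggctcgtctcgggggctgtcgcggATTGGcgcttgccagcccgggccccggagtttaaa
Ocln: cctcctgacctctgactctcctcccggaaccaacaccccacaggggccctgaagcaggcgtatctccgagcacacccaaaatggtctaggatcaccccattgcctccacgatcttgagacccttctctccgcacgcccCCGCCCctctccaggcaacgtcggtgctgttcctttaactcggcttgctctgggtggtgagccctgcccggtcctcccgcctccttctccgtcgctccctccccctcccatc

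The Cgn window held 6 GC boxes and 2 CCAAT boxes, that of Cldn11 held 0 and 2, and that of Ocln held 1 and 0. RefSeq windows were matched for 27 of the 41 members. A GC box was in 20 of the 27 (74.1%), against 33.0% of 27025 windows of all genes and 42.7% of 17492 windows of protein-coding genes. CCAAT was in 10 (37.0%), against 36.5% of the coding windows, and GATAA, the core read by GATA factors, in 6 (22.2%), against 21.0%. The SOX core AACAAT was in 0 of the 27, against 8.62% of the coding windows, and the AP-1 site TGANTCA in 2 (7.41%), against 6.18%. These are letter matches on both strands and no measure of binding.

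Claudins form the strands of the tight junction and set which ions pass. Of the 8 claudins read here, 7 had a positive difference on the deposited scale and 2 after the Sertoli shift, with 3 higher (37.5%, against 16.5% of all genes) and 1 lower (12.5%, against 13.5%) at an unadjusted p under 0.05. Cldn11, the claudin that builds the Sertoli tight junction strands, lay at 8.19, 8.31 and 8.40 in the Ing2+/+ arrays and at 8.72, 8.85, 9.67, 8.82 and 9.02 in Ing2−/− replicates 1 to 5. All 5 mutant values were above the wild-type ones, and replicate 3 was far above the rest. The difference was 0.72 (standard error 0.20, limma adjusted p = 0.0684), and an exact two-sided permutation test over the 56 splits of the arrays gave p = 0.0179, the smallest it can give. Without Ing2−/− replicate 3 it was 0.56 with an adjusted p of 0.00888 in limma.

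Cldn13, a rodent claudin, ran the other way. Its levels were 6.61, 6.81 and 6.93 in Ing2+/+ and 6.52, 6.37, 5.63, 6.15 and 6.06 in mutant testes, so that all mutant arrays were below the wild-type ones, replicate 1 by little and replicate 3 by most. The difference of −0.64 (standard error 0.18) had a limma adjusted p of 0.0749 and an exact permutation p of 0.0357. It passed without replicate 3 (−0.51, limma adjusted p = 0.0318). It also passed after the Sertoli shift (−1.19, limma adjusted p = 0.0268), but that shift lowers the difference of every gene. After it 57.5% of all genes were called lower, so passing there adds little.

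Cldn3 and Cldn5 are the claudins described at new and maturing contacts of the barrier, Cldn5 also being the main claudin of endothelium. Cldn3 lay at 7.20, 7.34 and 7.38 against 7.34, 7.71, 7.15, 7.47 and 7.32, with replicate 2 the highest and replicate 3 the lowest of all arrays, and the groups overlapped (difference 0.09, 95% interval −0.18 to 0.36). Cldn5 was at 7.46, 7.54 and 7.61 against 7.77, 7.85, 7.72, 7.43 and 7.80. In it 4 mutant arrays lay above the wild-type range and replicate 4 below it, for a difference of 0.18 (95% interval −0.05 to 0.41).

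Cldn12 had a small difference with little spread, since the mutant arrays ran from 6.62 to 6.69 and the wild-type arrays from 6.46 to 6.60 (0.15, limma adjusted p = 0.154). Cldn10, a claudin that forms paracellular ion pores, was below the unnamed probe sets' median on all 3 Ing2+/+ arrays and above it on 4 of 5 mutant ones, so its difference of 0.77 (95% interval 0.16 to 1.39) is taken from a dim level. Mutant arrays ran from 5.19 in replicate 2 to 6.51 in replicate 5, and the gene was called only when replicate 2 was left out (0.998, limma adjusted p = 0.0229) or the arrays were weighted. Its second probe set gave 0.63 with a limma adjusted p of 0.0308, the same sign. One that it shares with Dzip1 gave −0.51 (limma adjusted p = 0.0748). That shared probe set lay at 8.67 in Ing2+/+, beside 5.30 and 5.31 for those carrying Cldn10 alone, so its value cannot be credited to Cldn10. Cldn7 differed by 0.23 and Cldn1 by 0.05, with Cldn1 below the unnamed probe sets' median on every array.

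Occludin is a tetraspan protein of the same strands, and Ocln was the member with the fourth smallest p. It lay at 6.37, 6.27 and 6.24 in Ing2+/+ and at 6.63, 6.59, 7.30, 6.89 and 6.72 in Ing2−/− arrays. All mutant arrays were above the wild-type range, replicate 3 by most, and the difference was 0.53 (standard error 0.15, limma adjusted p = 0.0751, exact permutation p = 0.0357) or 0.41 without replicate 3 (limma adjusted p = 0.0179). After the Sertoli shift it was −0.02. Marveld2, which encodes tricellulin at the corners where cells meet, differed by 0.04 and was dim on all arrays.

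Beneath the strands lie scaffolds that bind actin and set polarity, and here Cgn stood out. Cgn encodes cingulin, which links the tight junction to actomyosin, and its levels were 8.56, 8.66 and 8.57 in Ing2+/+ against 9.09, 9.10, 10.01, 9.19 and 9.45 in mutant testes. The wild-type arrays lay close together and all mutant arrays above them, again with replicate 3 on top. The difference of 0.77 (standard error 0.20, 1.70-fold) had the smallest p of the 41 members (limma adjusted p = 0.0597, exact permutation p = 0.0179), and it was 0.61 without replicate 3 (limma adjusted p = 0.00906). It was 0.22 after the Sertoli shift.

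Tjp1, the scaffold ZO-1 that ties strands to actin, lay near its wild-type level on most mutant arrays. Its values were 9.60, 9.64 and 9.57 against 9.61, 9.53, 9.99, 9.65 and 9.70, so that replicate 3 was high and the other mutant arrays straddled the wild-type range. The difference was 0.09 (95% interval −0.14 to 0.32) and 0.02 without replicate 3. Tjp3, the related ZO-3, differed by 0.06, and Pard3, a polarity protein that binds atypical protein kinase C, by −0.08, both with overlapping groups.

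**Figure D2:**
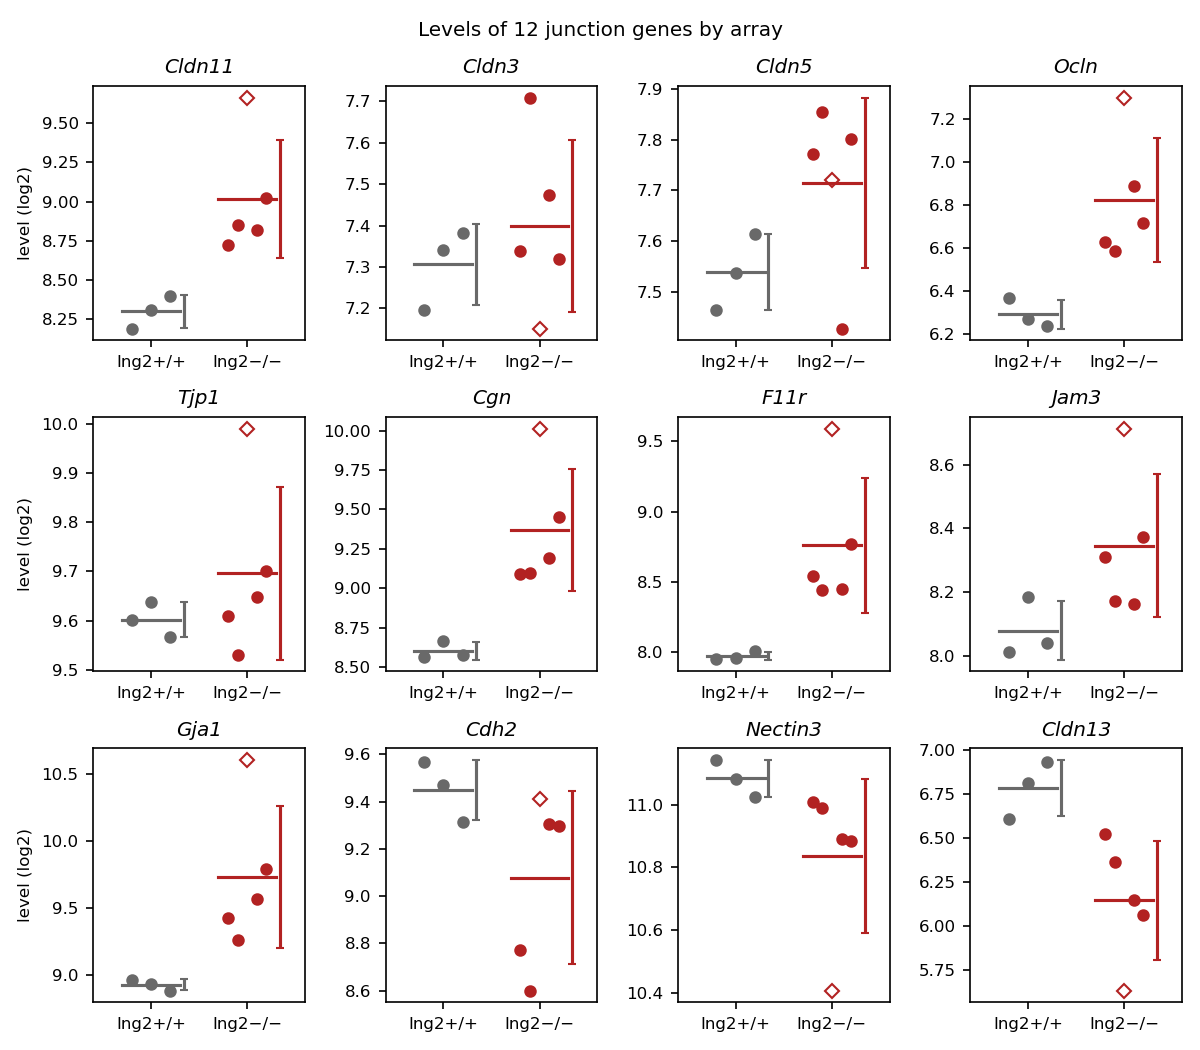
Level (log2) of 12 junction genes on each array, with Ing2+/+ in grey and Ing2−/− in red, open diamonds for Ing2−/− replicate 3, lines at group means and bars of 1 SD; each panel has its own axis, which does not start at 0. Cldn11, Ocln, Cgn, F11r and Gja1 have every Ing2−/− array above the Ing2+/+ arrays, while Nectin3 and Cldn13 have every one below. Shifting the arrays to an equal Sertoli marker median turns Cldn3, Cldn5, Ocln, Tjp1 and Jam3 from positive to negative, Ocln only to −0.02.

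Among junction receptors with immunoglobulin folds all 6 differences were positive, and 1 was after the Sertoli shift. F11r, the junctional adhesion molecule JAM-A of epithelial tight junctions, lay at 7.96, 7.96 and 8.01 in Ing2+/+ and at 8.55, 8.44, 9.59, 8.45 and 8.77 in Ing2−/− testes. The wild-type arrays were nearly equal and all mutant ones higher, replicate 3 by far. The difference was 0.78 (standard error 0.24, limma adjusted p = 0.0876, exact permutation p = 0.0357), and 0.58 without replicate 3 (limma adjusted p = 0.00812).

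Jam2 and Jam3 encode JAM-B and JAM-C, which bind each other between Sertoli cells and spermatids. For Jam2 the sign hung on replicate 3, at 9.25 beside 7.97 to 8.33 in the other mutant arrays, and the difference of 0.05 turned to −0.16 without it. Jam3 lay at 8.01, 8.19 and 8.04 against 8.31, 8.17, 8.71, 8.16 and 8.37, with 3 mutant arrays above the wild-type range and 2 within it (difference 0.27, 95% interval −0.02 to 0.55). Without replicate 3 the Jam3 difference was 0.17.

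Cxadr, the coxsackie and adenovirus receptor, which binds JAM-C, lay at 5.29, 5.21 and 5.12 against 5.31, 5.31, 5.59, 5.32 and 5.31. Mutant arrays were all above the wild-type ones, most of them by little, and all 8 values were below the median of the unnamed probe sets (difference 0.16, limma adjusted p = 0.257). Without replicate 3 the Cxadr difference was 0.11. Cadm1, an adhesion molecule of germ cells, was at 8.67, 8.71 and 8.80 against 8.85, 8.91, 9.03, 8.82 and 8.77, and replicate 5 alone fell within the wild-type range (difference 0.15, 95% interval −0.02 to 0.32). Esam, an endothelial adhesion molecule, differed by 0.23 with overlap, and the 12 endothelial markers had a median difference of 0.21 with every mutant array's mean between 0.12 and 0.31 above wild type, whose part in Esam was not tested.

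Connexins form the gap junctions, and Gja1, connexin 43 of the Sertoli cell contacts, showed the largest difference of all 41 members. It lay at 8.97, 8.94 and 8.88 in Ing2+/+ and at 9.42, 9.26, 10.61, 9.57 and 9.79 in Ing2−/− testes. All mutant arrays were higher, and replicate 3 exceeded the next one by more than the whole wild-type range. The difference was 0.80 (standard error 0.26, 1.74-fold, limma adjusted p = 0.0993, exact permutation p = 0.0536), 0.58 without replicate 3 (limma adjusted p = 0.0178) and 0.25 after the Sertoli shift. Gja4, connexin 37 of endothelium, differed by 0.10 and Gjb2, connexin 26, by 0.06, both with overlap, and Gjb2 was dim on all arrays.

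Classical cadherins and their catenins did not run one way, 4 of 6 differences being positive and none after the Sertoli shift. N-cadherin, Cdh2, which joins Sertoli cells to each other and to germ cells, lay at 9.57, 9.47 and 9.31 in Ing2+/+ and at 8.77, 8.60, 9.41, 9.31 and 9.30 in Ing2−/− arrays. Mutant replicates 1 and 2 were low, replicates 4 and 5 just under the wild-type range and replicate 3 within it, for a difference of −0.37 (95% interval −0.81 to 0.06, limma adjusted p = 0.242). P-cadherin, Cdh3, differed by −0.12 and E-cadherin, Cdh1, by 0.11.

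The 3 catenins that hold cadherins to actin or to the membrane all had positive differences on the deposited scale and negative ones after the Sertoli shift. Ctnnb1, beta-catenin, was at 9.30, 9.48 and 9.56 against 9.66, 9.63, 10.20, 9.56 and 9.80, with only replicate 4 reaching into the wild-type range (0.32, 95% interval −0.0018 to 0.65). Its difference without replicate 3 was 0.22. Ctnna1, alpha-catenin, differed by 0.51, with mutant arrays from 8.43 to 9.30 and wild-type ones from 8.22 to 8.26, and it passed without replicate 3 (0.37, limma adjusted p = 0.0321). Ctnnd1, p120-catenin, differed by 0.31 without overlap and did not pass without replicate 3 (0.21, limma adjusted p = 0.0651).

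At the ectoplasmic specialization, nectins pair across the Sertoli and spermatid membranes, nectin 2 on the Sertoli side and nectin 3 on the spermatid side. Nectin2 lay at 7.92, 8.13 and 8.10 against 8.20, 8.16, 8.70, 8.05 and 8.05, with 3 mutant arrays above the wild-type range, replicate 3 by most, and 2 within it (0.19, 95% interval −0.15 to 0.52). Its difference without replicate 3 was 0.07. Nectin3 was at 11.14, 11.08 and 11.02 against 11.01, 10.99, 10.41, 10.89 and 10.88. Here every mutant array was below the wild-type ones, replicate 3 by far the most, for a difference of −0.25 (95% interval −0.55 to 0.05, limma adjusted p = 0.261) or −0.14 without replicate 3. The 19 round spermatid markers had a median difference of −0.39, and their mean on each mutant array lay from −0.93 in replicate 3 to −0.13 in replicate 4; the part of the germ cell markers in the nectin 3 values was not tested.

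Actin-side proteins of the same structure lay on the higher side. Vcl, vinculin, differed by 0.58 with mutant arrays from 8.74 to 9.65 and wild-type arrays from 8.33 to 8.49, and Espn, the actin bundler espin, by 0.44 with ranges of 8.45 to 9.15 and 8.16 to 8.29. Without replicate 3 both passed limma, at 0.42 for Vcl (adjusted p = 0.0224) and 0.32 for Espn (adjusted p = 0.0171), whereas after the Sertoli shift Espn stood at −0.11 and Vcl at 0.03. Afdn, the afadin that carries nectins, differed by 0.07 and Vezt, vezatin, by 0.16, both with overlap.

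The 4 desmosomal members differed little. Pkp2, plakophilin 2, lay at 6.36, 6.12 and 6.30 in Ing2+/+ and at 6.22, 6.10, 6.46, 6.33 and 6.50 in Ing2−/− arrays, with replicate 2 the lowest and replicate 5 the highest of all and a difference of 0.06 (95% interval −0.18 to 0.30). Dsp, desmoplakin, differed by 0.20. The desmosomal cadherins Dsc2 and Dsg2 differed by 0.12 and 0.06 and were dim on all arrays. The groups overlapped in all 4, and all 4 differences were negative after the Sertoli shift. Outside the members, the desmosomal gene Jup lay lower by 0.49, with every Ing2−/− array below the Ing2+/+ arrays (limma adjusted p = 0.123). It passed without replicate 3 (−0.34, limma adjusted p = 0.0253). The further desmosomal genes Dsg3, Dsc3, Pkp1, Pkp3, Pkp4, Ppl and Evpl had positive differences with all arrays and passed in neither fit.

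Integrins anchor cells to the basement membrane and also stand at the ectoplasmic specialization, and both members lay higher without overlap on the deposited scale and kept a positive difference after the Sertoli shift. Itgb1, the beta subunit shared by many integrins, was at 8.70, 8.77 and 8.72 in Ing2+/+ and at 9.12, 9.03, 9.88, 9.15 and 9.50 in Ing2−/− testes. Replicates 3 and 5 were the highest, and the difference was 0.60 (standard error 0.18, limma adjusted p = 0.0824, exact permutation p = 0.0536), or 0.47 without replicate 3 (limma adjusted p = 0.0278). Itga6, its laminin-binding partner, differed by 0.72, with mutant arrays from 7.63 to 8.73 and wild-type arrays from 7.10 to 7.37, and by 0.53 without replicate 3 (limma adjusted p = 0.0210).

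**Figure D3:**
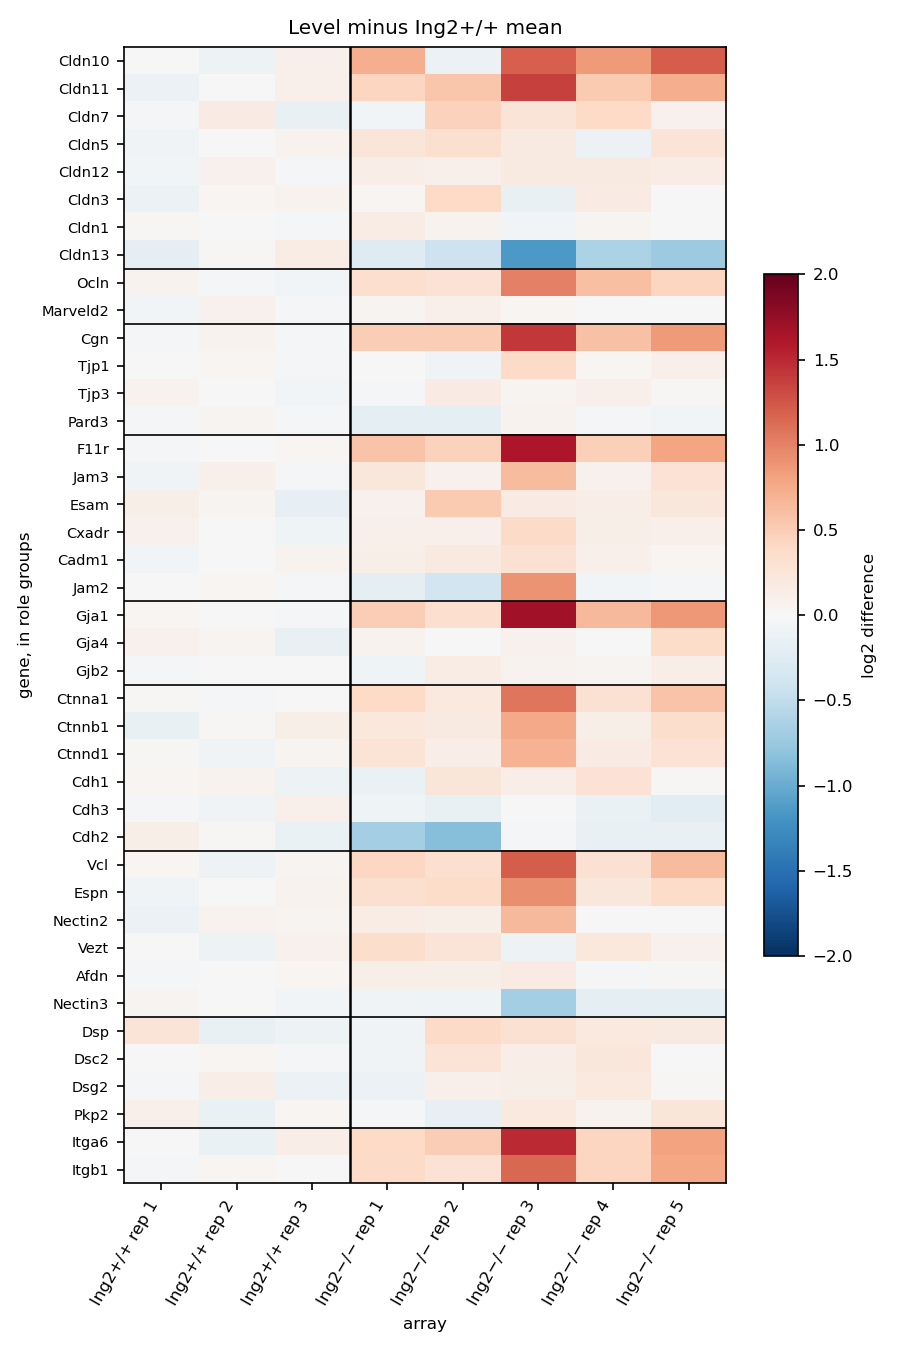
Level of each junction gene on each array minus its Ing2+/+ mean (log2, red higher and blue lower), with the 3 Ing2+/+ arrays left of the vertical line and role groups split by horizontal lines. Ing2−/− replicate 3 is the highest mutant array in 22 of 41 rows, beside 40 of 89 further junction genes not shown, with no count made over all genes. Cldn13, Cdh2 and Nectin3 have the deepest blue.

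The spread among mutant mice was thus shared across genes. Ing2−/− replicate 3 was the highest mutant array in 22 members and the lowest in 5. In 89 further junction genes it was the highest in 40 and the lowest in 20. The count over all genes was not made, so these counts are not read as particular to the members. Averaged over the 41 genes replicate 3 lay 0.46 above the wild-type mean. Replicates 1, 2, 4 and 5 lay 0.13, 0.14, 0.17 and 0.24 above that mean, and no wild-type array was more than 0.01 from it. Over the 23 Sertoli markers, none of them a member, replicate 3 lay 1.04 above and the others between 0.31 and 0.52 above. All 23 had positive differences, 20 of them without overlap (87.0%, against 16.7% of all genes), with a median of 0.55. Limma called 1 of them higher with all arrays (4.35%, against 1.97%) and 16 without replicate 3 (69.6%, against 8.72%). Leydig markers were also positive in 10 of 11, 5 of them called higher by limma (45.5%, against 1.97%), with means of 0.97 in replicate 3 and 0.23 to 0.67 in the others. Round spermatid markers had negative differences in all 19. The part of these cell markers in the junction values was not tested.

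**Figure D4:**
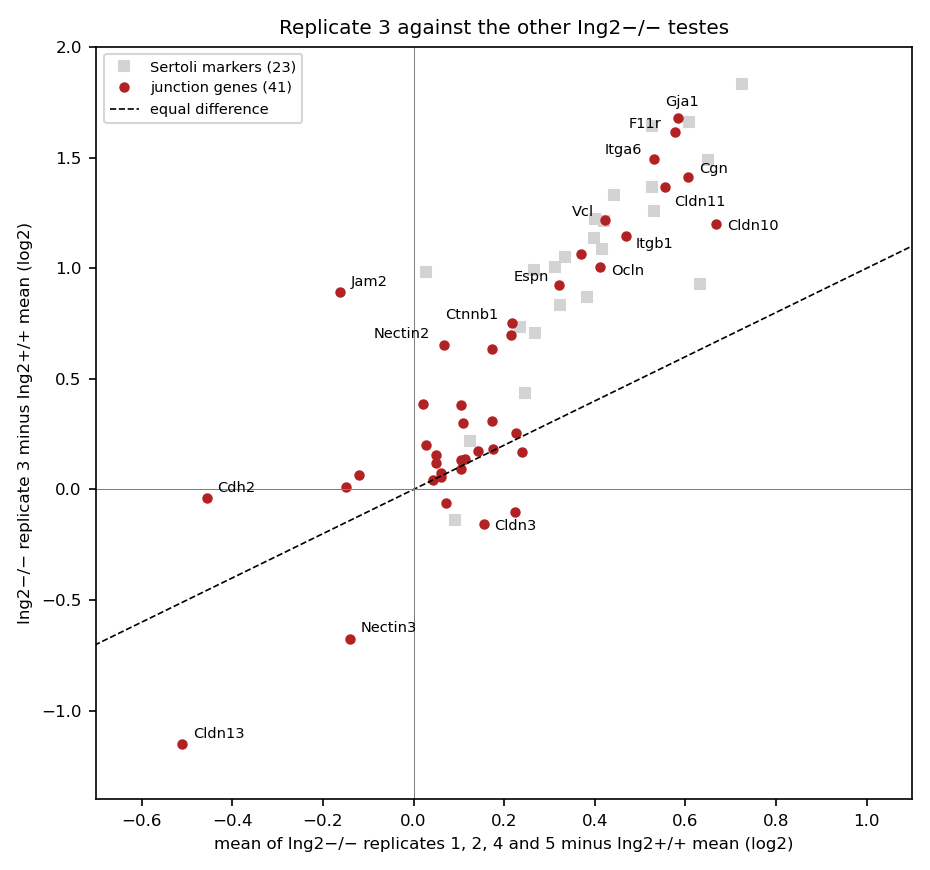
Difference from the Ing2+/+ mean (log2) in Ing2−/− replicate 3, vertical, against the mean of Ing2−/− replicates 1, 2, 4 and 5, horizontal, for 41 junction genes (red) and 23 Sertoli markers (grey squares); the dashed line marks equal differences, and both axes subtract the same Ing2+/+ arrays. Gja1, F11r, Itga6 and Cgn lie among the Sertoli markers at 1.41 to 1.68 in replicate 3 and 0.53 to 0.61 in the others. Cldn13, Nectin3 and Cdh2 lie below 0 on both axes, Cdh2 at −0.04 in replicate 3 and −0.46 in the others.

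With Ing2−/− replicate 3 left out, the 10 members that limma called higher were F11r, Gja1, Ocln, Vcl, Ctnna1, Itga6, Cldn11, Cgn, Espn and Itgb1, and the 1 called lower was Cldn13. The higher ones' differences then ran from 0.32 in Espn to 0.61 in Cgn, smaller than with all arrays, while the standard errors shrank more. Weights by array quality gave 12 higher (29.3%, against 11.3%), the same 10 with Cldn10 and Ctnnd1, and 1 lower (2.44%, against 9.28%). Among the 24 members whose probe set was above the median level of the table, 2 were called higher, Cgn and Cldn11, against 5.66% of such genes, and 0 lower, against 5.92%.

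With the Sertoli markers set equal across arrays, 0 members were called higher (against 0.0752% of all genes) and 11 lower (26.8%, against 57.5%). Those 11 were Cldn13, Marveld2, Tjp1, Jam2, Gjb2, Cdh2, Cdh3, Nectin3, Afdn, Pkp2 and Pard3. The members that kept a positive difference were Cldn10, Cldn11, Cgn, F11r, Gja1, Vcl, Itga6 and Itgb1, from 0.03 in Vcl to 0.25 in Gja1, and none of the 8 passed limma. The share of members called lower was below that of all genes.

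**Figure D5:**
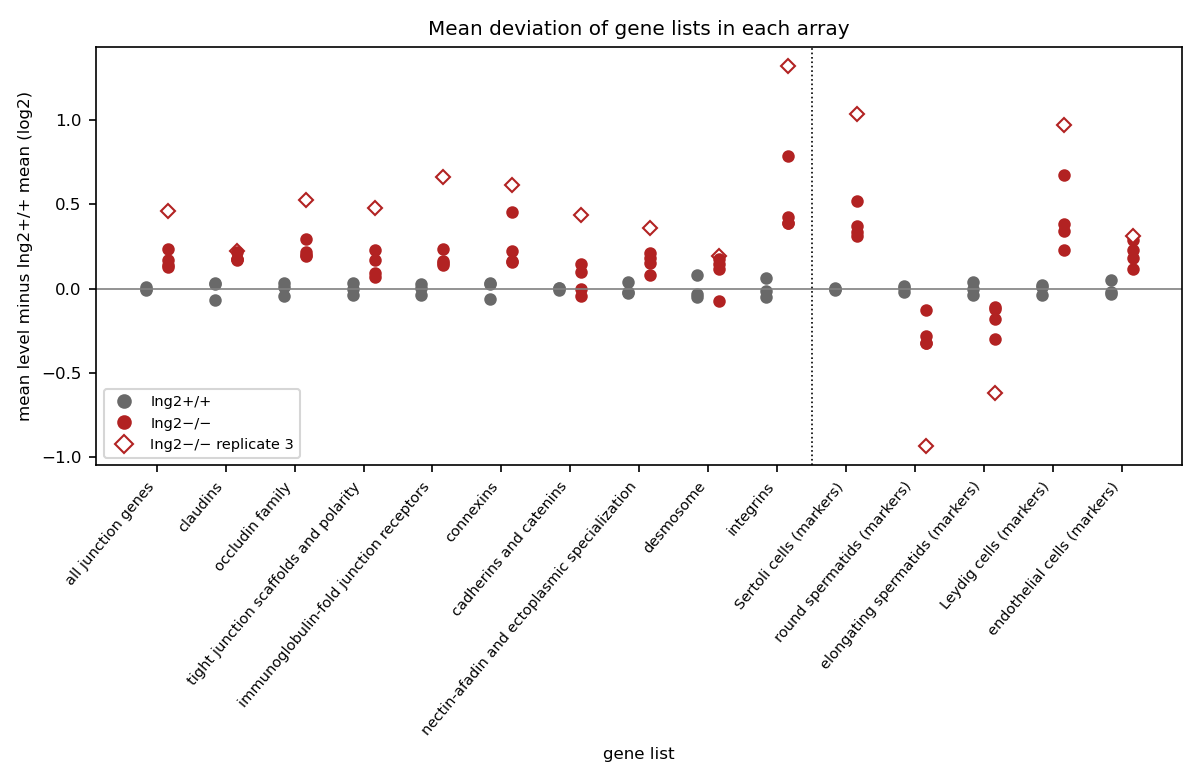
Mean difference from the Ing2+/+ mean (log2) on each array, for all 41 junction genes, their role groups and, right of the dotted line, markers of testicular cell types; grey points are Ing2+/+, red points Ing2−/− and open diamonds Ing2−/− replicate 3. The integrins reach 1.32 in replicate 3 and the Sertoli markers 1.04, round spermatid markers lie at −0.93 there, and on the scale of equal Sertoli medians the medians of all role groups but the integrins are negative.

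A further 89 junction genes outside the 41, of 101 listed, were read in the same fit for comparison. Limma called 3 higher (3.37%, against 1.97% of all genes) and 4 lower (4.49%, against 3.01%), and their median difference was 0.06 beside 0.02 over all genes. At an unadjusted p under 0.05 limma counted 20 higher (22.5%, against 16.5%) and 10 lower (11.2%, against 13.5%). Every Ing2−/− array lay above every Ing2+/+ array in 22 (24.7%, against 16.7%) and below in 10 (11.2%, against 14.9%). Differences were positive in 59 (66.3%, against 54.3%). Tmem114, a relative of the claudins, rose by 0.98 (adjusted p = 0.0443), Cttn, the actin regulator cortactin, by 0.67 (adjusted p = 0.0445), and Pls3, the actin bundler plastin 3, by 0.52 (adjusted p = 0.0382). After the Sertoli shift Tmem114 kept 0.43 while Pls3 stood at −0.03. With any Ing2+/+ array or Ing2−/− replicate 1 or 5 left out 0 of the 89 were called higher, without Ing2−/− replicate 2 it was 1, and without replicate 3 it was 12 (13.5%, against 8.72%).

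The largest decrease was that of Itga1. The gene, which encodes the collagen-binding integrin alpha 1, lay at 8.67, 8.67 and 8.72 in Ing2+/+ and at 7.59, 7.40, 7.32, 7.36 and 7.37 in Ing2−/− testes. Both groups were tight and replicate 3 was not set apart, and Itga1 fell by 1.28 (standard error 0.07, limma adjusted p = 3.95e-04), with an adjusted p of at most 0.00780 whichever array was left out. Prkcz, an atypical protein kinase C that works with Pard3, fell by 0.94 (limma adjusted p = 0.0152), Fscn1, the actin bundler fascin, by 0.51 (adjusted p = 0.0166) and Mpdz, a scaffold of many PDZ domains, by 0.36 (adjusted p = 0.0455). Of the 89, 1 was called lower without Ing2+/+ replicate 1 or 2, 2 without Ing2+/+ replicate 3 and 7 without Ing2−/− replicate 3 (7.87%, against 7.76% of all genes).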

How the data were processed

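The deposited values are log2 levels of 35557 probe sets, which the authors made with RMA in Affymetrix Expression Console (version not given in the sources used here): background correction, normalization between arrays and summary of probes, so a level is read against the rest of the testis RNA. Array medians ran from 6.41 to 6.53, and scan dates and batches are not given in the sources used here. Symbols came from the platform's annotation and were updated by gene identifier with the RefSeq table of GRCm38.p6 (21698 of 21789 probe sets with 1 symbol). Genes with several probe sets were read from the brightest.

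For the 2 genotypes, lmFit and eBayes of limma 3.58.1 (R 4.3.3) were run without covariates, Benjamini-Hochberg adjusted over all probe sets and called at an adjusted p under 0.05. For single genes the exact permutation test used all 56 splits into 3 and 5. The p-values measure the spread between these mice. A mean over a list on an array is its genes' mean level minus the Ing2+/+ mean. Figures used Python 3.11.15 and matplotlib 3.10.9. The fit was tested on simulated data. The number of arrays limits precision.

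Members and lists were chosen with earlier results of these data known. Every member is named; those with the 4 smallest p, the brightest of each role and a core of 11 barrier genes are given array by array, F11r and Itga1 having been added after their values were seen. Alternatives were each array left out, the replicate number as a block, bright probe sets only, cyclic loess, equal Sertoli medians, 3 other variance models, array weights and the mean of a gene's probe sets.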

Additional observations from a re-analysis of the deposited data

Results flagged for a closer look

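Within the 5 Ing2−/− arrays, a single array lay far from the rest in 8 of the 41 junction genes. Its gap to its neighbour was over 0.71 of the whole range of the group (Dixon's test), which chance gives in about 1 in 20 groups. The share over all genes was not counted. Since Ing2−/− replicate 3 stood apart over the whole array, the 8 are not read as particular to junction genes. In 6 of the 8 Ing2−/− replicate 3 was the highest. The gap was 0.947 of the range in Cxadr (5.59 beside 5.32), 0.795 in Espn (9.15 beside 8.59), 0.767 in Nectin2 (8.70 beside 8.20), 0.723 in Ctnnd1 (9.50 beside 9.09), 0.72 in Jam2 (9.25 beside 8.33) and 0.715 in F11r (9.59 beside 8.77). Nectin3 had replicate 3 as the lowest, with a gap of 0.795 (10.41 beside 10.88). Gja4, connexin 37, was the exception, its gap of 0.723 belonging to replicate 5 as the highest (6.02 beside 5.75).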

How the results depend on the processing

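Leaving out 1 array at a time gave 0 to 10 junction genes called higher, with 10 without Ing2−/− replicate 3 and 1 without replicate 2, and 0 to 1 called lower. Over the 89 further junction genes these ranges were 0 to 12 higher and 1 to 7 lower, and over all genes 40 (without Ing2+/+ replicate 2) to 3286 calls (without Ing2−/− replicate 3) beside 992. Array weights gave 12 members higher and 1 lower, 13 and 8 of the further genes, and 4107 of all. Bright probe sets gave 2 members and 5 further genes higher and a members' median of 0.29 over the 24 tested. Equal Sertoli medians gave 11 members lower and a median of −0.39, 1 further gene higher and 46 lower, and 11486 calls in all; the sign turned in members that then passed, to −0.51 in Marveld2, −0.46 in Tjp1, −0.50 in Jam2, −0.49 in Gjb2, −0.48 in Afdn and −0.49 in Pkp2. Of the further genes called higher, the random variance model counted 0, the intensity trend 1 and single variances 0, the last also 1 lower. Over all genes the random variance model made 540 calls at its own threshold and single variances 142. Causes were not tested.

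With the replicate number as a replicate block, 0 genes were called in all, 0 members and 0 further genes in either direction, though limma had 4513 genes and 13 members at an unadjusted p under 0.05. The numbers are no shown pairing: same-numbered arrays deviated together with r = −0.06, 0.18 and 0.01, and 1 of 3 Ing2+/+ arrays correlated best with its own number. Cyclic loess and the mean of a gene's probe sets left members at 0 calls.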
